A study of Oryctolagus cuniculus with 12 samples.

Results

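The 10 genes described here encode inflammatory cytokines, an inducible prostaglandin enzyme, leukocyte adhesion molecules and an inhibitor of NF-kB: IL1A, IL1B, IL1RN, IL6, TNF, CCL2, PTGS2, ICAM1, VCAM1 and NFKBIA. They were taken by gene name from a deposited table of 29076 genes, and each of the 10 names had a single entry. RNA was sequenced from rabbit cornea in 12 libraries, 3 each from a control group, a group exposed to blue light, and groups labelled GL and RL, which the labels do not spell out. Every group was of rabbits aged 6 months fed a normal diet. The entry for light exposure over 6 weeks is the same for all groups, controls included, and neither wavelength nor intensity is stated. The labels name no genetic modification in any group. Per the labels the tissue was cornea, and nothing says whether the libraries of a group came from separate animals. The p-values below therefore set group differences only against the spread among these libraries, and that spread may be technical.

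Interleukin 1 and tumour necrosis factor bind receptors that switch on NF-kB, a transcription factor held in the cytoplasm by inhibitors such as the NFKBIA product. NF-kB in turn drives transcription of chemokines, PTGS2, ICAM1, VCAM1 and NFKBIA itself, the last of these a negative feedback. In the cornea, interleukin 1 alpha is known as a stored signal that epithelial cells release on injury, and the receptor antagonist IL1RN competes with it.

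The inducing cytokines IL6, TNF and IL1B were at or near the detection floor in every group, while the antagonist IL1RN and the inhibitor NFKBIA were the most abundant of the set. By group mean, VCAM1 stood lowest in blue_light, and PTGS2 stood lowest in GL and highest in RL, while CCL2 varied most within RL. None of these differences passed the adjusted threshold by edgeR.

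Markers of the 3 corneal layers were abundant in all libraries. The summed level of 11 corneal epithelial markers was 26920 to 46450 CPM (counts scaled to library size), that of 8 keratocyte markers 44170 to 76600 CPM and that of 10 corneal endothelial markers 2965 to 6093 CPM, with none of these genes at 0 in any library. The 18 leukocyte markers found in the table summed to 26.7 to 89.0 CPM. Of these 18, 7 were never at 0, 10 were at 0 in some libraries and 1 in all. CD3E, which defines T cells, was at 0 in all 12 libraries and CD3D in 11. The macrophage gene CD68 was above 0 in every library, while CD163, also of macrophages, and the general leukocyte gene PTPRC were each at 0 in 4. Depth was 40.9 to 64.7 M (mega) counts, an estimated 11.015 to 17.4 M fragments. Some libraries stood apart: 14 retinal markers ranged from 10.5 to 702 CPM, highest in GL replicate 3, blue_light replicate 1 and control replicate 2, and 11 lens markers from 370 to 13680 CPM. Also, 5 libraries (all blue_light, control 1 and RL 1) held more rarely detected genes, with 2389 to 2563 at 1 to 20 counts against 767 to 1461 in the 7 others.

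Compared per transcript length, in FPKM (fragments scaled to length and library size), the inhibitors stood highest and the inducing cytokines lowest. IL1RN ranged from 36.0 to 114 FPKM over the 12 libraries with a median of 56.6, and NFKBIA from 31.2 to 62.3 with a median of 50.8. CCL2 had a median of 16.6 FPKM, PTGS2 of 5.86 and ICAM1 of 3.81. VCAM1 had a median of 0.728 FPKM and IL1A of 0.0888, while the medians of IL1B, TNF and IL6 were 0. The ranges over the 12 libraries overlap at every step of this order, from IL1RN and NFKBIA down to VCAM1 (0.0752 to 2.75 FPKM) and IL1A (0 to 1.14 FPKM). Compared within each library, NFKBIA stood above CCL2 and ICAM1 above VCAM1 in all 12 libraries. The closest values were 32.5 against 28.2 FPKM in RL 1 for NFKBIA and CCL2, and 1.08 against 0.906 FPKM in control 2 for ICAM1 and VCAM1.

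A detection floor was set at 3 fragments, which corresponded to 0.173 to 0.257 CPM depending on the library. IL6, TNF and IL1B lay near or under it in all 4 groups, taken as a group median under 4 times the floor, and IL1A in all groups except RL. VCAM1 lay near it in blue_light alone, at a median of 2.51 times the floor. The other 5 genes were well above, and 6 genes including VCAM1 were above the floor in all 12 libraries.

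**Figure D1:**
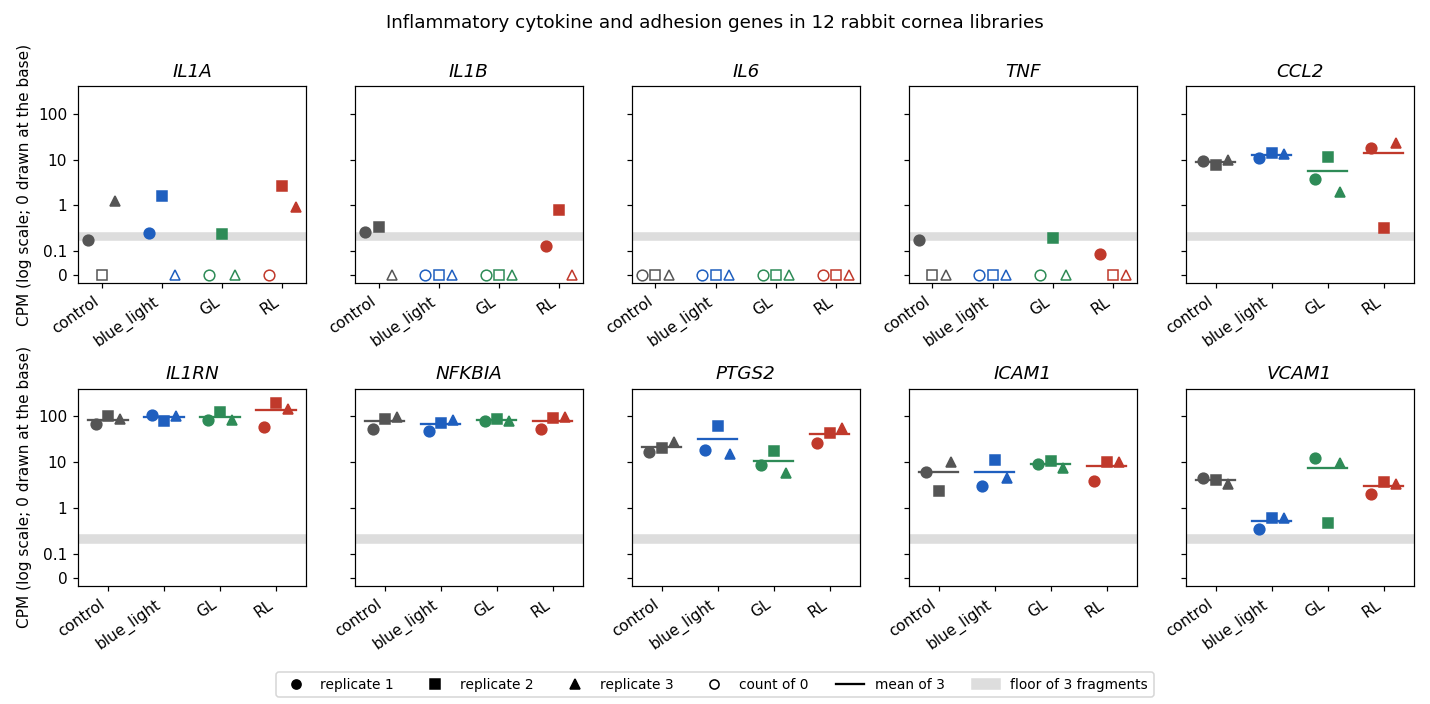
CPM of the 10 genes (log axis, with a count of 0 drawn as an open symbol at the base) by group, 1 point per library with its replicate number as the shape. The grey band is the floor of 3 fragments, 0.173 to 0.257 CPM, and lines mark means of 3 where no library is at 0. IL6 is at 0 throughout, IL1RN and NFKBIA lie between 47.5 and 199 CPM, and the widest ranges within a group are those of CCL2 in RL (71.2-fold) and VCAM1 in GL (26.0-fold).

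The pro-inflammatory cytokines were barely detected. IL6, which signals through gp130 and drives the acute phase response, had a count of 0 in all 12 libraries, which allows at most the floor of 0.173 to 0.257 CPM in each, for counting error only. TNF was at 0 in 9 libraries and stood at 0.174 CPM in control 1, 0.200 in GL 2 and 0.0867 in RL 1, equal to 2.15, 3.23 and 1.08 fragments. These TNF values are single fragments to a few fragments, and no group can be ranked from them. Neither IL6 nor TNF passed the filter on low counts, so neither was tested.

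IL1B, the secreted form of interleukin 1, was at 0 in all blue_light and all GL libraries. It stood at 0.261, 0.333 and 0 CPM in control and at 0.130, 0.781 and 0 CPM in RL. Only 3 of the 12 libraries were above the floor, with RL 2 highest at 12.4 fragments. Since the control mean of 0.198 CPM is itself at the floor, no fold is given against the groups at 0, and IL1B passed the low-count filter only through control and RL.

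IL1A, the cell-associated form, was detected above the floor in 5 libraries and was at 0 in 5 others. The control libraries stood at 0.174, 0 and 1.26 CPM, the blue_light libraries at 0.254, 1.60 and 0, the GL libraries at 0, 0.233 and 0, and the RL libraries at 0, 2.60 and 0.946. Every group held a library at 0, and all groups overlapped. The highest value, 41.2 fragments, was again in RL 2.

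IL1A, IL1B and IL1RN lie within 320.7 kb of the same chromosome sequence in the deposited coordinates (NC_013670.1, IL1A at 97560391-97570279 and IL1B at 97614341-97618580 on the minus strand, IL1RN at 97875552-97881097 on the plus strand). No build name is given for these rabbit coordinates. The interval holds 9 listed genes, and only 2 of them were above the floor in every library. These were IL1RN and IL36RN, the antagonist of the interleukin 36 receptor, which ranged from 1.37 to 5.88 FPKM. The agonists IL36A and IL36G reached at most 0.694 and 0.263 FPKM, and IL37 had 3 counts in a single library. These neighbours were chosen by position after the values were seen.

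IL1RN, which occupies the interleukin 1 receptor without signalling, had the highest median FPKM of the 10 genes. It stood at 66.5, 100.5 and 84.8 CPM in control, at 104, 78.5 and 99.6 in blue_light, at 82.7, 126 and 84.6 in GL and at 59.4, 199 and 144 in RL. RL held both the lowest and the highest library, so it overlapped every other group. Group means were 83.9 ± 17.0 in controls, then 94.0 ± 13.6 in blue_light, 97.9 ± 24.7 in GL and 134 ± 70.2 in RL (SD, n = 3 each). RL minus control was 0.68 on the log2 scale with a 95% interval of -0.07 to 1.42 (unadjusted p = 0.0730, adjusted p = 1 by edgeR). The difference was 1.03 without RL replicate 1 and 0.29 without RL replicate 2. Within the 7 libraries with fewer rare genes, a split chosen after the data were seen, RL stood at 144 and 199 CPM and control at 84.8 and 100.5 (adjusted p = 0.399 by edgeR). In the 5 others RL 1 at 59.4 CPM lay below control 1 at 66.5 and below all blue_light libraries.

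None of the 8 genes tested passed the threshold in any comparison by edgeR (adjusted p below 0.05 over 18171 genes). The counts were 0 of 8 in blue_light minus control, where 0.0165% of all genes were called, 0 of 8 in GL minus control (0.055% of all genes) and 0 of 8 in RL minus control (0.011%). Between light groups they were 0 of 8 in blue_light minus GL (0.0495%), in blue_light minus RL (0.011%) and in GL minus RL (0.0715%), and 0 of 8 in the test of any difference among groups (0.0605%). At an unadjusted p below 0.05 there was 1 gene in blue_light minus control (3.26% of all genes), 0 in GL minus control (8.1%) and 0 in RL minus control (4.74%). There were 2 in blue_light minus GL (14.9%), 1 in blue_light minus RL (5.14%), 2 in GL minus RL (8.6%) and 2 in the test of any difference (7.79%). Groups did not overlap for 2 of 8 genes in blue_light minus control (VCAM1 and CCL2, 9% of all genes), 0 in GL minus control (18.5%) and 0 in RL minus control (8.32%). Between light groups this held for 0 in blue_light minus GL (26.9%), 1 in blue_light minus RL (VCAM1, 8.99%) and 1 in GL minus RL (PTGS2, 13.2%). With only 8 genes tested, nothing particular to the set is read from these counts. VCAM1 and PTGS2 made up the counts at an unadjusted p below 0.05, apart from IL1B in GL minus RL. IL1B was at 0 in all GL libraries and entered the test only through the groups where it was detected, so its p is not read as a result. Limma on log2(FPKM + 1) and on log2(FPKM + 0.1) called 0 genes of the set in every comparison, and DESeq2 called VCAM1 and PTGS2 as given below. DESeq2 called more of all 18171 genes too. It called 383 in blue_light minus GL, 197 in GL minus RL and 267 in any difference, against 9, 13 and 11 by edgeR.

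Over the 6 genes above the floor in every library, 4 stood higher in blue_light than in control (median log2 0.08, against 0.01 over all genes), 4 higher in GL (0.14 against -0.02) and 5 higher in RL (0.50 against 0.0045). Among all genes tested 51.8%, 48.2% and 50.5% stood higher in these comparisons. The 3 comparisons share the same control libraries.

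**Figure D2:**
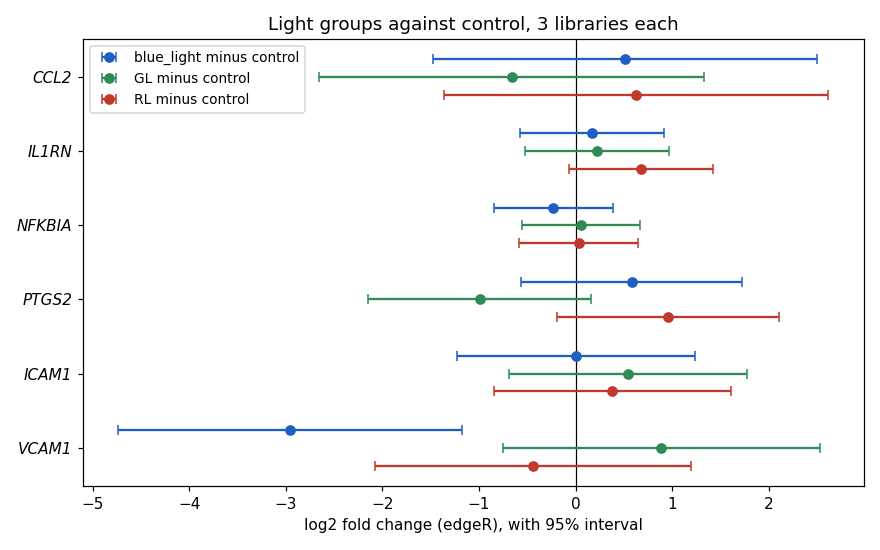
Log2 fold change from edgeR (horizontal axis) of the 6 genes above the floor in all libraries, for each light group minus control (colours), with bars for the 95% interval and n = 3 libraries per group. Of the 18 intervals, that of VCAM1 in blue_light, -4.73 to -1.17, is the only one that leaves out 0, and it does not pass the adjusted threshold.

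CCL2, the chemokine that draws monocytes through CCR2, stood at 9.23, 7.60 and 9.82 CPM in control and at 10.8, 14.2 and 12.9 in blue_light, with every blue_light library above every control. In GL it stood at 3.73, 11.1 and 1.96 CPM. In RL it stood at 17.7, 0.323 and 23.0 CPM, a 71.2-fold range in which replicate 2 held 5.11 fragments and replicates 1 and 3 the highest values of all 12 libraries. Differences from control were 0.51 (95% interval -1.48 to 2.49) in blue_light, -0.66 (-2.66 to 1.33) in GL and 0.62 (-1.37 to 2.61) in RL on the log2 scale, none called by edgeR. The GL difference was -1.64 without replicate 2 and -0.24 without replicate 3. The RL difference was 1.20 without replicate 2 and 0.02 without replicate 3, and with all libraries -0.39 and -0.78 with limma at pseudocounts of 1 and 0.1.

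RL replicate 2 was not low for the neighbouring monocyte chemokine CCL7, whose gene starts 9.6 kb beyond CCL2 on the same strand. CCL7 stood at 5.87, 8.05 and 10.9 CPM in RL, against 3.48, 2.45 and 5.28 in control, 5.01, 16.8 and 4.40 in blue_light and 3.99, 4.03 and 1.51 in GL. The same RL library had the highest IL1A, IL1B and IL1RN values and the highest leukocyte marker sum, 89.0 CPM against 26.7 to 64.5 in the 11 others. The single marker CD74 made up 43.4 CPM of that sum. In RL 2, 12 of the 18 leukocyte markers lay above the floor, fewer than the 14 in control 1 and in GL 2. CCR2, the receptor, was at 0 in 4 libraries and reached at most 0.326 FPKM.

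PTGS2, the inducible cyclooxygenase that makes the prostaglandin precursor, stood at 16.3, 20.8 and 26.9 CPM in control. It stood at 18.5, 62.2 and 14.7 CPM in blue_light, at 8.56, 17.8 and 5.82 in GL and at 26.1, 42.8 and 54.6 in RL. Every RL library lay above every GL library. In blue_light, replicate 2 stood far above the other libraries of its group and was the highest of all 12.

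GL minus RL was -1.94 ± 0.55 SE for PTGS2 on the log2 scale (95% interval -3.12 to -0.76, unadjusted p = 0.00358, adjusted p = 0.405 by edgeR), and DESeq2 called it with an adjusted p of 0.0225. Without the 3 libraries richest in retinal markers this difference was -1.65 ± 0.60 (adjusted p = 0.954 by edgeR). Blue_light minus GL was 1.57 ± 0.54 (adjusted p = 0.262 by edgeR), and 0.63 without blue_light replicate 2. Blue_light minus RL was -0.37, and -1.31 without that library. Against control the differences were 0.58 (-0.57 to 1.72) in blue_light, -0.99 (-2.15 to 0.16) in GL and 0.95 (-0.20 to 2.10) in RL. The blue_light difference turned to -0.36 without replicate 2. The 22 immediate early genes in the table, transcripts that appear within minutes of a stimulus or of handling, summed to 902 to 1429 CPM in GL, 2089 to 4317 in RL, 914 to 2290 in blue_light and 1276 to 2978 in control, so GL and RL did not overlap for them either. Epithelial marker sums were 39880 to 40660 CPM in GL, above all controls (26920 to 35630) and all blue_light libraries (27100 to 33630), and 33850 to 46450 in RL. Keratocyte sums were 65030 to 68990 CPM in GL, above all controls (49630 to 54490), against 44170 to 65930 in blue_light and 48150 to 76600 in RL. The part of these marker lists in the PTGS2 differences was not tested.

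VCAM1, the endothelial and stromal ligand that captures leukocytes through the integrin of ITGA4 and ITGB1, had the largest log2 difference between groups among the 6 genes above the floor. It stood at 4.59, 4.13 and 3.42 CPM in control and at 0.346, 0.606 and 0.606 CPM in blue_light, that is at 44.4 to 63.5 against 4.04 to 9.69 fragments. Every blue_light library lay below every control. In GL the libraries stood at 12.5, 0.482 and 9.44 CPM: replicates 1 and 3 lay above all controls and replicate 2 lay inside the blue_light range. The RL libraries stood at 1.97, 3.62 and 3.33 CPM, overlapping the controls and lying above every blue_light library.

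Blue_light minus control was -2.95 ± 0.82 SE for VCAM1 on the log2 scale (95% interval -4.73 to -1.17, unadjusted p = 0.00342, rank 40 of 18171 genes, adjusted p = 1 by edgeR). It was -0.77 on the log2(FPKM + 1) and -2.24 on the log2(FPKM + 0.1) scale with limma, which compress low values. Blue_light minus GL was -3.84 ± 0.85 (unadjusted p = 0.000625, adjusted p = 0.182 by edgeR), and blue_light minus RL was -2.51 ± 0.81 (unadjusted p = 0.00869, adjusted p = 0.910). GL minus control was 0.89 with an interval of -0.75 to 2.53 (0.30 without GL replicate 1), and RL minus control -0.44 with an interval of -2.08 to 1.19. DESeq2 gave an adjusted p of 0.00053 for blue_light minus GL, 0.0207 for any difference among groups and 0.0908 for blue_light minus control. Without GL replicate 2 the edgeR test called VCAM1 in blue_light minus GL (log2 -4.39, adjusted p = 0.00218) and in the test of any difference (adjusted p = 0.0102).

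The 5 libraries with many rare genes include all blue_light libraries, and within them control 1 at 4.59 and RL 1 at 1.97 CPM lay above the 3 blue_light libraries. With that library set as a covariate the log2 difference from control was -2.81 ± 0.93, and without the 3 libraries richest in retinal markers it was -2.72. No blue_light library lies outside the set, so the covariate is estimated from control and RL libraries only. The parts of the set and of blue light in the low VCAM1 values thus cannot be fully told apart. Blue_light minus GL was -3.42 without those 3 libraries (adjusted p = 0.986 by edgeR). The 14 vascular endothelial markers summed to 154 to 225 CPM in blue_light, 182 to 213 in control, 205 to 242 in GL and 237 to 279 in RL, with PECAM1 at 0 in 8 libraries and TEK in 10. KDR and ERG, with medians of 85.2 and 100.1 CPM, carried most of that sum. Within GL the markers did not move together: replicate 2, with VCAM1 at 0.482 CPM, had the highest sum but 7 of 14 markers above the floor, and replicate 1, with VCAM1 at 12.5 CPM, had the lowest sum, 10 markers above the floor and the highest CDH5 (20.5 against 14.3 and 13.8 CPM). The GL libraries also had higher epithelial and keratocyte sums than all controls, as given for PTGS2. The part of any of these cells in the VCAM1 values was not tested. In bulk tissue, fewer cells of a type and less RNA per cell cannot be told apart.

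**Figure D3:**
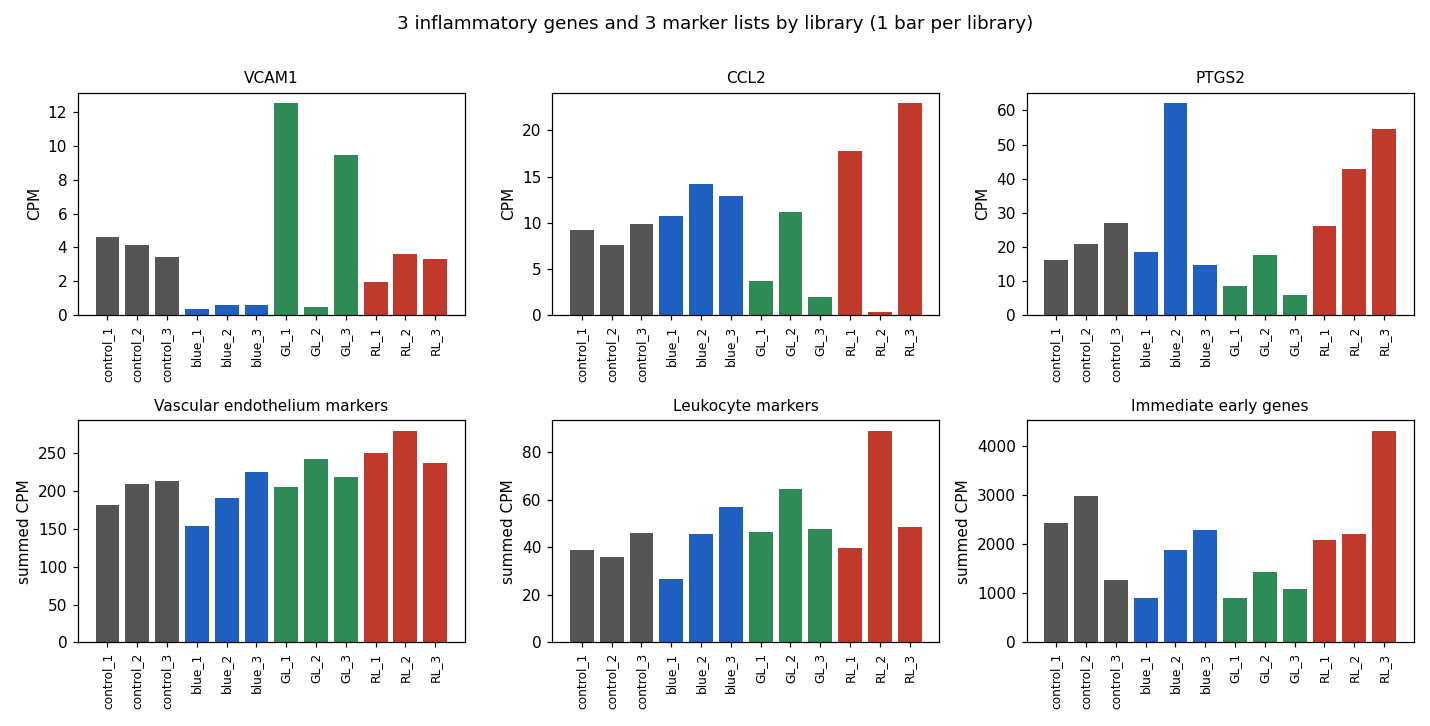
CPM of VCAM1, CCL2 and PTGS2 (upper panels) and summed CPM of vascular endothelial, leukocyte and immediate early genes (lower panels), 1 bar per library, coloured by group. VCAM1 is low in the 3 blue_light libraries and GL 2, CCL2 is lowest in RL 2 at 0.323 CPM, and PTGS2 is highest in blue_light 2 at 62.2 CPM. Endothelial sums lie between 154 and 279 CPM and are mostly KDR and ERG, while PECAM1 is at 0 in 8 libraries and TEK in 10.

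ICAM1, the ligand of the leukocyte integrin LFA-1, was above the floor in every library. It stood at 6.01, 2.33 and 10.2 CPM in control, at 3.03, 11.1 and 4.43 in blue_light, at 9.24, 10.3 and 7.37 in GL and at 3.94, 10.05 and 10.1 in RL. All groups overlapped, and GL had the narrowest range. Blue_light minus control was 0.0025 on the log2 scale (95% interval -1.23 to 1.23), turning to -0.72 without blue_light 2 and -0.39 without control 2. GL minus control was 0.54 (-0.69 to 1.77) and RL minus control 0.38 (-0.85 to 1.61). In the deposited table ICAM1 is placed on an unplaced sequence (NW_003159459.1:98882-106836).

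NFKBIA, which masks NF-kB and is transcribed in response to it, was the least variable of the genes above the floor, with a 2.04-fold range over the 12 libraries. It stood at 52.1, 86.3 and 97.0 CPM in control, at 47.5, 70.6 and 82.5 in blue_light, at 78.8, 88.1 and 77.8 in GL and at 51.8, 92.5 and 96.0 in RL. All groups overlapped. The differences from control were -0.23 (95% interval -0.84 to 0.38) in blue_light, 0.06 (-0.56 to 0.67) in GL and 0.03 (-0.58 to 0.64) in RL on the log2 scale, and these intervals leave out a doubling or halving (a log2 of 1) in each group. The 5 libraries with many rare genes stood at 47.5 to 82.5 CPM and the 7 others at 77.8 to 97.0. With the set as a covariate the blue_light difference turned to 0.38 and the GL difference to -0.18, and the part of the library sets in these values was otherwise not tested.

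Receptors and partners of these genes were also measured. They were chosen as direct partners after the values were seen. IL6ST, the gp130 subunit that IL6 signals through, had a median of 58.1 FPKM and IL6R 5.26. The tumour necrosis factor receptors TNFRSF1A and TNFRSF1B had medians of 22.7 and 10.3 FPKM. Of the interleukin 1 receptors, the decoy IL1R2 had a median of 28.7 FPKM against 6.91 for the signalling receptor IL1R1 and 4.34 for the accessory chain IL1RAP, and the ranges of IL1R2 (15.2 to 59.2) and IL1R1 (2.12 to 12.4) did not overlap. The VCAM1 partners ITGA4 and ITGB1 had medians of 3.09 and 143 FPKM. Of the selectins that act before ICAM1 and VCAM1, SELE was at 0 in 10 libraries and SELP in 11.

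The wider pathway was followed in 7 lists with 143 other genes, of which 130 were in the table and 113 were tested. By edgeR 0 of 113 passed the adjusted threshold in each of the 6 pairwise comparisons and in the test of any difference. At an unadjusted p below 0.05 there were 2 genes in blue_light minus control, both higher, 4 in GL minus control (1 higher, 3 lower) and 8 in RL minus control (5 higher, 3 lower). These are 1.77%, 3.54% and 7.08% of the 113, against 3.26%, 8.1% and 4.74% of all genes. In the comparisons between light groups the counts were 16 in blue_light minus GL (14.2%), 4 in blue_light minus RL (3.54%) and 13 in GL minus RL (11.5%), against 14.9%, 5.14% and 8.6% of all genes. Limma called 0 of the 113 as well. DESeq2 called 1 in GL minus control (DUSP1), 3 in GL minus RL (PLA2G4A, DUSP1 and TNFRSF11B) and 1 in the test of any difference (DUSP1). In these comparisons DESeq2 called 147, 197 and 267 of all 18171 genes, so nothing particular to the pathway is read from its calls.

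Each list is described by its tested genes that stood higher in blue_light, GL and RL than in control, in that order. Of 14 other cytokines these were 10, 7 and 9, and of 12 chemokines 8, 8 and 8, with chemokine medians of 0.37, 0.26 and 0.64 on the log2 scale. Of 25 cytokine receptors they were 15, 12 and 14, and of 21 NF-kB signalling genes 10, 8 and 10. Of 16 feedback inhibitors they were 3, 7 and 10, with medians of -0.18, -0.05 and 0.06. Of 10 prostaglandin genes they were 4, 6 and 6, and of 15 adhesion partners 9, 8 and 9. Among all genes tested 51.8%, 48.2% and 50.5% stood higher. List medians not given above ran from -0.18 to 0.25, both in other cytokines. The summed CPM of the 15 chemokines in the table overlapped among groups. It was 24.8 to 63.3 in control, 39.3 to 70.2 in blue_light, 37.7 to 64.6 in GL and 39.9 to 65.8 in RL. Only 7 to 11 of these 15 lay above the floor, depending on the library, so the chemokine medians rest partly on low counts.

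**Figure D4:**
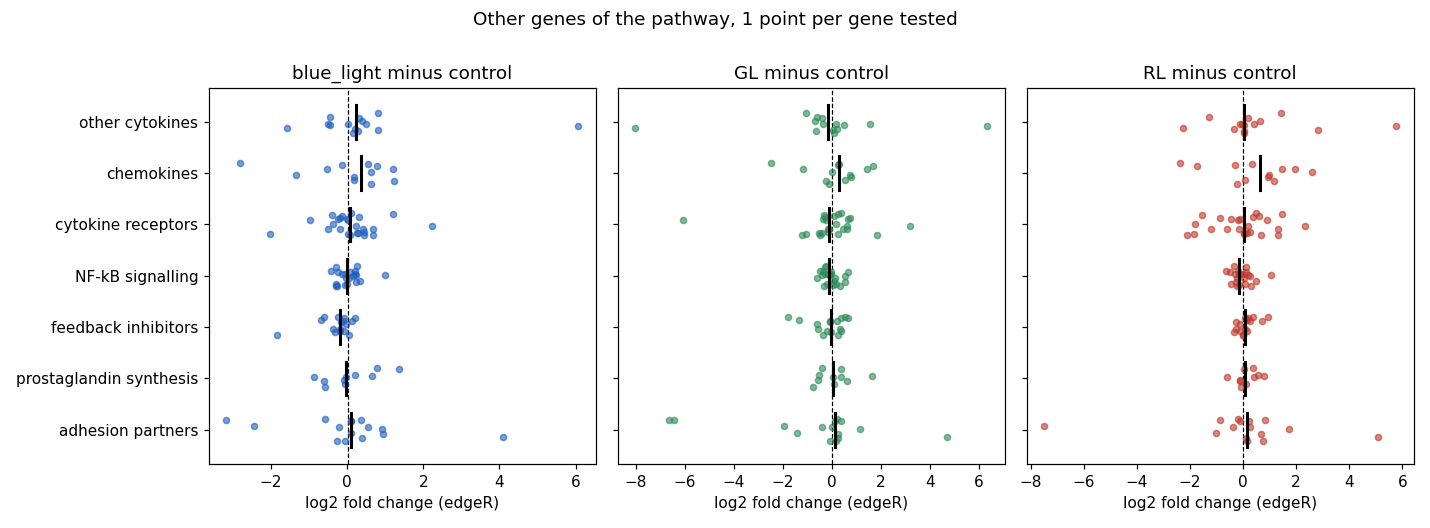
Log2 fold change from edgeR (horizontal axis, scaled per panel) of 113 pathway genes in 7 lists (rows), for each light group minus control, 1 point per gene with a bar at the list's median. The dashed line is the median of all genes tested, 0.01, -0.02 and 0.0045. Chemokine medians lie at 0.37, 0.26 and 0.64, with 0 of the 12 called by edgeR. Of the 15 chemokines in the table, only 7 to 11 lay above the floor, depending on the library. Folds of genes at 0 in a whole group, such as CSF3 and PECAM1 in GL, depend on the prior count.

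Named genes follow as the 3 of each list with the smallest p in the test of any difference, as values without a claim of change. PLA2G4A, the phospholipase that frees the substrate of PTGS2, stood at 103 ± 12.4 CPM in controls, 120 ± 54.2 with blue light, 72.0 ± 10.9 in GL and 153 ± 37.6 in RL (SD, n = 3). PTGES, which completes prostaglandin E2, had group levels of 12.9 ± 5.12, 8.55 ± 2.97, 19.6 ± 4.87 and 11.9 ± 3.49 CPM, ordered likewise. ALOX5, of leukotriene synthesis, stood at 4.30 ± 0.49, 2.36 ± 0.14, 4.39 ± 2.53 and 2.85 ± 0.37. The GL mean was thus the lowest of the 4 for PLA2G4A and PTGS2, and the highest for PTGES.

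Among the feedback inhibitors, DUSP1, a phosphatase of stress kinases, stood at 243 ± 132 CPM in controls, 159 ± 82.9 with blue light, 70.1 ± 26.5 in GL and 314 ± 132 in RL. ZFP36, which destabilises cytokine mRNAs, stood at 161 ± 95.4, 99.3 ± 56.0, 63.6 ± 4.94 and 176 ± 46.6 CPM. Both are immediate early genes too. TNIP1, a partner of the NF-kB inhibitor A20, stood at 191 ± 14.5, 167 ± 31.7, 243 ± 26.7 and 175 ± 65.3.

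Among receptors, the decoy TNFRSF11B stood at 6.32 ± 1.67 CPM in controls, 5.56 ± 1.52 with blue light, 10.6 ± 2.29 in GL and 3.48 ± 1.46 in RL. OSMR stood at 95.5 ± 18.2, 115 ± 37.5, 66.3 ± 5.08 and 105 ± 32.99, and IL4R at 2.72 ± 0.82, 4.31 ± 1.99, 3.66 ± 1.46 and 6.73 ± 1.27 CPM. Of the kinase complex that releases NF-kB, CHUK stood at 46.0 ± 7.03, 54.2 ± 5.87, 34.7 ± 5.02 and 52.1 ± 8.58 and IKBKB at 103 ± 5.41, 123 ± 24.4, 86.6 ± 16.0 and 81.3 ± 18.6. TRAF1 stood at 22.1 ± 4.54, 25.9 ± 4.37, 32.1 ± 3.45 and 18.5 ± 7.15.

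Among chemokines beside CCL7, the neutrophil attractant CXCL8 stood at 1.96 ± 1.68 CPM in controls, 4.49 ± 5.40 with blue light, 0.86 ± 0.34 in GL and 5.41 ± 6.02 in RL. The highest CXCL8 libraries were RL 3 at 12.4 and blue_light 2 at 10.7, the same that were highest for PTGS2. CXCL16 stood at 6.00 ± 0.63, 6.75 ± 1.99, 10.2 ± 1.31 and 11.5 ± 6.09. Of the other cytokines, IL18 stood at 113 ± 21.3, 138 ± 38.0, 71.6 ± 2.78 and 116 ± 74.0 CPM, MIF at 173 ± 49.97, 127 ± 31.7, 242 ± 26.7 and 177 ± 91.7, and CSF3 at 0.60 ± 0.74 in control and 0 in all GL libraries. Among adhesion partners, CD44 stood at 109 ± 27.0, 209 ± 37.0, 129 ± 26.8 and 176 ± 105 CPM, and ALCAM at 51.4 ± 12.7, 74.8 ± 25.6, 38.8 ± 2.72 and 60.9 ± 31.7. PECAM1 reached at most 0.813 CPM.

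For the 6 genes above the floor throughout, the most similar patterns were sought by Pearson's r of log2 CPM over the 12 libraries among 11122 genes with a symbol. These libraries share groups, depth differences and the 5-library set, and the values describe likeness only. Nearest to VCAM1 were FAM60A (0.896), FEZ1 (0.869) and FAM45A (0.865), and nearest to PTGS2 were RND3 (0.911), PLA2G4A (0.897) and FXYD3 (0.888). CCL2 was followed most closely by PHF1 (0.951), ADPRM (0.930) and AP1AR (0.928), and ICAM1 by ADORA2B (0.944), RAP2B (0.931) and TFAP2C (0.930). For IL1RN these were HMGA1 (0.932), GFOD2 (0.916) and MTHFD1 (0.909), and for NFKBIA MAP7D1 (0.952), TMEM204 (0.945) and NOP2 (0.934). PLA2G4A was the only gene of the 7 pathway lists among these 18.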

How the data were processed

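Per the file headers, the authors deposited for each of 12 libraries an estimated count of every gene together with its FPKM. The submitters' processing notes name GRCm38 and mm10, a mouse build, while the table's genes lie on rabbit RefSeq sequences. No aligner or counter is named. All 140000 counts of 0 carry an FPKM of 0.0001, read here as 0. Low counts pile up at steps of 3.715 (3.67 to 3.745 by library), rounded up, so 1 fragment was taken as 3.715 counts. The floor of 3 fragments rests on that step and covers counting error only.

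EdgeR 4.0.16 quasi-likelihood fits (R 4.3.3, TMM scaling, filterByExpr) covered all 12 libraries with 4 group means, and p-values were adjusted by Benjamini-Hochberg over 18171 genes. Estimated counts were whole, so rounding moved nothing. CPM uses TMM-adjusted library sizes. Alternatives were DESeq2 1.42.0, limma 3.58.1, scaling, filters, a replicate block, a library-set covariate and omission of libraries. The fitting code was run on simulated counts that spread less between libraries than the real ones. That run checks the code only and does not measure power or error in these data. The 10 genes and the lists were chosen with earlier results of these data known. All 10 genes were named, and 3 genes of each list by smallest p in the test of any difference. All 10 gene identifiers carry the same symbol in a RefSeq table (mOryCun1.1), used for names only. Of the listed genes, 13 pathway genes were not found under their listed symbol and are not used here.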

Additional observations from a re-analysis of the deposited data

How the results depend on the processing

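Of 416 recomputed folds of the 6 genes above the floor, 389 kept direction and side of the threshold, 24 turned sign and 3 passed the threshold (VCAM1 in blue_light minus GL with DESeq2 and without GL 2, PTGS2 in GL minus RL with DESeq2). VCAM1 has a mean FPKM under 1 and was not tested with that filter. Folds of VCAM1 and PTGS2 between light groups were added after the data were seen. Folds of IL1A and IL1B, near the floor, were not followed. IL6 was at 0 throughout, and the few fragments of TNF and IL1B are read as presence or absence only. IL1A was above the floor in 5 libraries, with at most 41.2 fragments, and every group held a library at 0.

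The sign turned, on the log2 scale, as follows. With the library set as a covariate, IL1RN in GL was -0.10, NFKBIA 0.38 in blue_light and -0.18 in GL, and PTGS2 in blue_light minus RL 0.16. NFKBIA in GL was -0.16 within the 7 libraries, a setting chosen after the data were seen. With limma at pseudocounts of 1 and 0.1, CCL2 in RL was -0.39 and -0.78 and NFKBIA in RL -0.040 and -0.041, and ICAM1 in blue_light was -0.00073 at 1. Without the 3 libraries richest in retinal transcripts, ICAM1 was -0.062 in blue_light and -0.012 in RL, and NFKBIA 0.039 in blue_light. With the replicate block ICAM1 in blue_light was -0.13. Leaving out single libraries gave ICAM1 from -0.72 to 0.58 in blue_light and from -0.012 to 0.95 in RL, PTGS2 from -0.36 to 0.92 in blue_light, IL1RN from -0.0053 to 0.37 in GL, and NFKBIA from -0.16 to 0.24 in GL and from -0.18 to 0.26 in RL. The cause was not tested.

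The number of the 8 genes called was 0 in all comparisons except 1 in blue_light minus GL, in GL minus RL and in any difference with DESeq2, and 0 to 1 in blue_light minus GL and any difference when single libraries were left out. For the pathway lists it was 0 except with DESeq2, with 1 in GL minus control, 3 in GL minus RL and 1 in any difference.

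Over all genes, in the order blue_light, GL and RL minus control, blue_light minus GL, blue_light minus RL, GL minus RL and any difference, the main counts were 3, 10, 2, 9, 2, 13 and 11. DESeq2 gave 29, 147, 81, 383, 77, 197 and 267. Leaving out single libraries gave 2 to 10, 3 to 21, 2 to 9, 3 to 22, 2 to 5, 5 to 25 and 5 to 25. Fits of the compared groups alone moved 4 of these, to 7, 28 and 5 against control and 3 in GL minus RL. Omission of the retinal libraries gave 1 in blue_light and 1 in GL minus control, 0 in blue_light minus GL, 1 in blue_light minus RL, 2 in GL minus RL and 0 in any difference. The library set covariate gave 0 in blue_light minus GL, and the 7 libraries alone gave 5 in GL minus control, 9 in RL minus control and 8 in GL minus RL. Limma at pseudocount 0.1 gave 5 in blue_light minus control, 15 in blue_light minus GL, 9 in blue_light minus RL and 22 in any difference. At pseudocount 1 it gave 1 in RL minus control, 6 in blue_light minus RL, 20 in GL minus RL and 22 in any difference. No filter gave 5 in blue_light minus RL and 22 in any difference, a mean FPKM filter 14 in blue_light minus GL, and step-divided counts 4 in blue_light minus RL.

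The replicate numbers of the labels are not said to pair libraries, and deviations of same-numbered libraries correlated between -0.0738 and 0.235 in 18 pairs, with 3 over 0.1. The replicate block gave 2, 11, 3, 9, 2, 9 and 11 genes over all comparisons in the order above and called none of the 8 genes tested.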
